A study of Mus musculus with 2 samples.

Results

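Tubular injury and keratin genes were examined in kidney cells of mice with nephrotoxic serum nephritis. The group holds 9 of the 20299 genes in the deposited matrix, taken by name: Havcr1, Clu and Sox9, which are used as markers of injured tubules, the epithelial keratins Krt8, Krt7, Krt18 and Krt19, the small heat-shock protein gene Cryab, and the syndecan gene Sdc4. Their unique molecular identifiers (UMIs, each counting 1 captured transcript) were summed by cluster and library. Particular attention went to cells of the Vsir-/- library that the authors placed in the non-EM-like CD4+ T or the Proliferating cluster although they held no UMI of 6 T cell genes, the CD3 chain genes Cd3d, Cd3e and Cd3g and the T cell receptor constant genes Trac, Trbc1 and Trbc2 (EM, effector memory).

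The series compares WT mice with Vsir-/- mice, which lack the gene for the immune checkpoint protein VISTA, by 3′ droplet sequencing of kidney cells. Both groups were C57BL/6 mice aged 8 weeks that were immunized with 200 μg of sheep IgG in Freund's complete adjuvant and received nephrotoxic sheep serum 4 days later, at 2 μl/g by the labels and at a higher dose by the paper's methods, and their kidneys were digested with liberase. There was 1 library per genotype, and neither the number of mice behind a library nor the day of harvest is stated in the sources read. By the labels the WT library holds sorted CD45+ cells and the Vsir-/- library all kinds of kidney cells, whereas the methods describe a CD45+ sort. The sort and the genotype therefore cannot be told apart, no test between genotypes was possible, and every interval below is a 95% interval for counting error only.

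Keratins form the intermediate filaments of epithelia as obligate pairs of a type II chain, such as Krt8 or Krt7, with a type I chain, such as Krt18 or Krt19. In the kidney these simple-epithelial keratins are known mainly from the collecting duct, and Krt8 and Krt18 also appear in stressed tubules. Havcr1 encodes KIM-1, a phosphatidylserine receptor of injured proximal tubule cells, Clu encodes the secreted chaperone clusterin, and Sox9 a transcription factor of regenerating tubule cells. Cryab encodes αB-crystallin, a small heat-shock protein abundant in the renal medulla, and Sdc4 a cell-surface heparan sulfate proteoglycan found on many cell types, leukocytes included.

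Promoter windows are shown for Krt8 and Krt18, keratin partners whose ratio differed between the cell sets, for Krt7, and for Sdc4, the only gene of the group with more than 14 UMIs in the WT library. The windows are the 250 bases before the annotated start, 5′ to 3′ on the gene's strand, from RefSeq on GRCm38.p6. Of the 9 genes, 5 had a window in the table used, Havcr1 with 3 starts. Capitals mark matches on either strand to the AP-1 motif TGANTCA, the TATA box TATAAA, the GC box GGGCGG, or the NF-κB consensus.
Krt8, chr15:102004343-102004592, minus strand: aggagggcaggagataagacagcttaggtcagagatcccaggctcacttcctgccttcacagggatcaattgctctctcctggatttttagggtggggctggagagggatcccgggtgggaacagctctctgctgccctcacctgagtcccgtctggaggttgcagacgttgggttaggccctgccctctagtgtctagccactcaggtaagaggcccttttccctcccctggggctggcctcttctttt
Krt18, chr15:102027966-102028215, plus strand: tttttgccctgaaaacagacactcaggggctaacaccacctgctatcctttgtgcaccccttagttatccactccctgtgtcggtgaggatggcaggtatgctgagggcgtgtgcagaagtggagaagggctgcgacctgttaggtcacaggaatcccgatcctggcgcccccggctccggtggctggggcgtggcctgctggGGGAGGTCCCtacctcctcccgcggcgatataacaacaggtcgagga
Krt7, chr15:101412153-101412402, plus strand: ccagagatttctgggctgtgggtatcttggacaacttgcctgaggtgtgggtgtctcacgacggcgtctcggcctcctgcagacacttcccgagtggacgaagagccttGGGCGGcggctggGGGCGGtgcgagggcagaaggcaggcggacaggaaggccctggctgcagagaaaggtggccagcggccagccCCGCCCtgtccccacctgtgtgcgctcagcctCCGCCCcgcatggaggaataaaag
Sdc4, chr2:164443189-164443438, minus strand: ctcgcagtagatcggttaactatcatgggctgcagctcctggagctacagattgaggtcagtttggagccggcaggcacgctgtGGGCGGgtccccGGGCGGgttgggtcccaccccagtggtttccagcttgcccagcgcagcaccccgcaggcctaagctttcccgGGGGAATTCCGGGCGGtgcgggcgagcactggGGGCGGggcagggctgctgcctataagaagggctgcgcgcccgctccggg
The windows of Krt7 and Sdc4 each held 4 GC boxes, a motif found in 32.7% of all 32851 windows of this length. An NF-κB match lay 82 to 73 bases before the Sdc4 start, with a GC box directly after it, and another lay 47 to 38 bases before the Krt18 start; 7.25% of all windows held one. The window of Krt8 had no match to any of the 4 motifs, and none of the windows shown held an AP-1 motif, present in 6.75% of all windows, or the TATA box letters, present in 12.4%. Krt8 and Krt18 lie on opposite strands of chromosome 15 with starts 23.9 kb apart, so the partners are neighbours that are read away from each other.

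The WT library held 5470 cells and 32799550 UMIs, and the Vsir-/- library 1844 cells and 18601189 UMIs, with medians of 4726.5 and 6673 UMIs per cell. Vsir itself had 4278 UMIs in the WT library, or 130 per 1000000 UMIs of the same cells (CPM), and 8 UMIs in the Vsir-/- library, or 0.430 CPM, as the labels imply. The libraries shared 5 cell barcodes, none of them among the cells without T cell transcripts described here.

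In the Vsir-/- library, 233 of the 349 cells of the non-EM-like CD4+ T cluster and 123 of the 189 Proliferating cells had no T cell transcript, against 0 of 895 and 4 of 118 WT cells. These 356 Vsir-/- cells were deep, with medians of 9616 and 15198 UMIs in the 2 clusters, and only 15 and 17 of them had a UMI of Ptprc, the gene for CD45. The cells were chosen for lacking T cell transcripts, and by Ptprc, which played no part in the choice, most also showed no sign of being leukocytes. At least 1 UMI of the 9 genes was found in 89.3% of the cells of the CD4+ cluster and in 86.2% of the Proliferating cells without T cell transcripts. After every cell was thinned to 1000 UMIs, these shares were 68.3% and 49.6%, against 23.5% and 16.7% in the cells of the same clusters with T cell transcripts. Vsir-/- B cells and neutrophils served as a reference, with thinned shares of 25.0% and 22.2% (53.4% and 56.3% unthinned, at medians of 3596.5 and 4097 UMIs). Ptprc was found in 56.8% of these B cells and 97.5% of these neutrophils. The B cells held 997 CPM of proximal tubule and 1330 CPM of endothelial genes, the neutrophils 601 and 315 CPM. Their shares are therefore a comparison and not a measure of free RNA alone. Unthinned, a keratin of the 4 was detected in 66.5% and 52.8% of the cells without and in 27.6% and 31.8% of the cells with T cell transcripts, in 11.4% of Vsir-/- B cells, in 16.5% of Vsir-/- neutrophils and in none of the 895 WT cells that share the CD4+ cluster. By the thinned share of any member the cells with T cell transcripts (116 and 66 cells) were near B cells and neutrophils. By the unthinned keratin share they lay between those and the cells without T cell transcripts. Their medians of 5349.5 and 14311.5 UMIs were above those of B cells and neutrophils. The unthinned share is not matched for depth, so it cannot tell depth from keratin level.

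**Figure D1:**
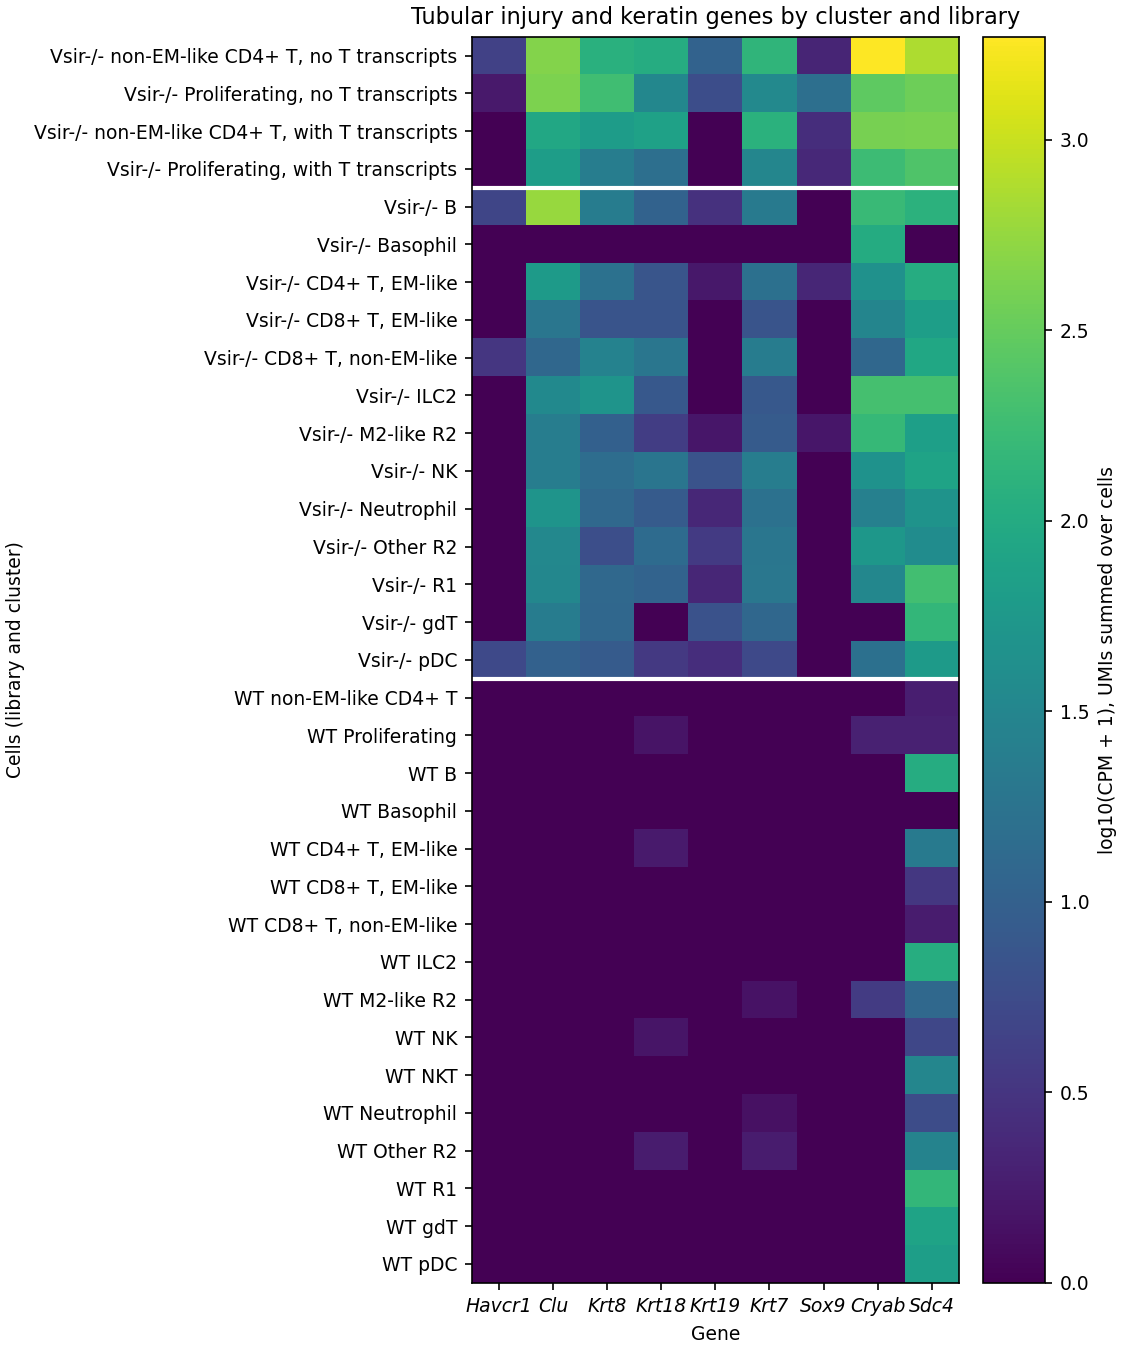
Summed level of each gene (columns) in each set of cells (rows), as log10(CPM + 1). The 4 sets of the 2 clusters of interest are at the top, the other Vsir-/- clusters in the middle and the WT clusters at the bottom, where Sdc4 is the only column with more than 3 CPM.

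Summed over the 9 genes, cells without T cell transcripts held 3453 CPM (3391 to 3516) in the CD4+ cluster and 1336 CPM (1295 to 1378) in the Proliferating cluster. Cells with T cell transcripts held 1151 and 542 CPM, at log2 ratios of 1.59 (1.51 to 1.67) and 1.30 (1.19 to 1.42). WT cells of the same clusters held 4 and 5 UMIs of the 9 genes in all. In the CD4+ cluster, 7 of the 9 genes passed the filter of 20 UMIs over both sets, and 3 of these (Clu, Krt19 and Cryab) were at least 2-fold higher without T cell transcripts, beside 14.4% of all 11647 genes. None was at least 2-fold lower, beside 5.98% of all genes. In the Proliferating cluster 4 of 7 (Clu, Krt8, Krt18 and Sox9) were at least 2-fold higher, beside 13.4% of all 11667 genes, and none was 2-fold lower, beside 6.21%. The median log2 ratio of the tested members was 0.93 and 1.11, against 0.18 and 0.19 over all genes. With 7 genes that were chosen with earlier results known, these counts describe the set and were not tested. In the same 2 comparisons the median log2 ratio was 1.51 and 2.89 for proximal tubule genes and 1.22 and 0.61 for epithelial junction genes. For principal cell genes it was -0.25 and -0.41. Both medians of the members lay below those of the proximal tubule genes.

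Among the injury markers, Clu had 1569 UMIs (464 CPM) in the CD4+ cluster without T cell transcripts, 109 (89.4 CPM) with them, 1276 (425 CPM) in the Proliferating cluster without them and 95 (65.9 CPM) with them. Both pairs differed by more than counting error, with log2 ratios of 2.38 (2.10 to 2.67) and 2.69 (2.39 to 3.01). Few cells carried these sums: the median of the cells with a Clu UMI was 2 UMIs in both clusters, whereas 1 cell of the CD4+ cluster held 690 and 1 Proliferating cell 582. Without the 5 cells highest in Clu among those without T cell transcripts, the log2 ratios were 0.76 and 0.45. The level of Clu was close in the 2 clusters, at a log2 ratio of -0.13 (-0.24 to -0.02) for Proliferating over CD4+.

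Havcr1 was nearly absent. It had 11 UMIs in 5 of the 233 cells of the CD4+ cluster without T cell transcripts (3.26 CPM), 2 UMIs in 2 of 123 Proliferating cells, and none in the cells with T cell transcripts. Against the 3 UMIs that a count of 0 allows, the level in the CD4+ cluster was at least 1.32-fold higher, but the exact interval of the log2 ratio reached down to -0.14. In the CD4+ cluster 3 cells held 3 Havcr1 UMIs each. The 13 other clusters of the Vsir-/- library together held 8 UMIs, 1 in each of 8 cells (0.837 CPM). Of these, 5 lay in plasmacytoid dendritic cells, 2 in B cells and none in neutrophils. The level in plasmacytoid dendritic cells was 4.23 CPM (1.37 to 9.86). That interval overlapped the one of the CD4+ cluster without T cell transcripts (1.63 to 5.83). A UMI was found in 5.81% of plasmacytoid dendritic cells and 2.27% of B cells, at medians of 13776.5 and 3596.5 UMIs per cell. It was found in 2.15% of the CD4+ cluster without T cell transcripts, at a median of 9616 UMIs. All 7 cells with Havcr1 also had Cryab and Sdc4, and 6 had Clu, genes found in 200, 277 and 150 of all 356 cells without T cell transcripts. Of the 145 cells led by proximal tubule transcripts, 2 had a UMI of this marker of the injured proximal tubule. With 13 UMIs in all, no comparison of Havcr1 between sets of cells was firm at this depth.

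Sox9 was detected in 10 cells. Its 44 UMIs in the Proliferating cluster without T cell transcripts (14.7 CPM) came from 6 cells, 21 of them from 1 cell with 145955 UMIs in all, against 2 UMIs in Proliferating cells with T cell transcripts and 4 UMIs in 4 cells of the CD4+ cluster. The log2 ratio was 3.40 (1.46 to 6.49) for cells without over cells with T cell transcripts. Without its 5 highest cells 1 UMI was left and the log2 ratio was -1.84, so the Sox9 value describes 5 cells. The cell with 21 Sox9 UMIs had 39 UMIs of the stroma list (Pdgfrb, Col1a1, Col1a2, Acta2, Rgs5 and Dcn), 16 of the proximal tubule list, and no Krt8, Krt18 or Krt19.

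Of the type II keratins, Krt8 had 404 UMIs (120 CPM) without and 76 (62.3 CPM) with T cell transcripts in the CD4+ cluster, and 555 (185 CPM) and 34 (23.6 CPM) in the Proliferating cluster. The log2 ratios were 0.94 (0.58 to 1.31) and 2.97 (2.47 to 3.52). It was the keratin seen in the most cells: 51.9% and 43.9% of the cells without T cell transcripts, 14.7% and 15.2% of those with them, and 9.09% and 5.70% of Vsir-/- B cells and neutrophils. Krt8 was the only gene other than Sox9 whose interval lay above 0 for Proliferating over CD4+ cells without T cell transcripts, at 0.63 (0.44 to 0.82). That excess was 0.27 without the highest cell of each set, a Proliferating cell with 155 Krt8 UMIs, and -1.001 among cells with at most 5% mitochondrial UMIs.

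Krt7 behaved differently from Krt8. It had 468 UMIs (139 CPM) without and 150 (123 CPM) with T cell transcripts in the CD4+ cluster, a log2 ratio of 0.17 (-0.10 to 0.45), and 100 (33.3 CPM) and 44 (30.5 CPM) in the Proliferating cluster, a log2 ratio of 0.13 (-0.40 to 0.67). Neither ratio could be told from 0 by counting error, while the CD4+ cluster without T cell transcripts held more Krt7 than the Proliferating cluster, at a log2 ratio of -2.06 (-2.38 to -1.74) for Proliferating over CD4+. Of the 100 Proliferating UMIs, 52 lay in 1 cell, and the level was 16.5 CPM without it. Without the highest cell of each set, the log2 ratio of cells without over cells with T cell transcripts was -0.54. In cells rather than UMIs, Krt7 was found in 34.3% and 18.1% of the CD4+ cluster, without and with T cell transcripts (10.3% and 1.74% after thinning), and in 17.1% and 21.2% of the Proliferating cluster (2.56% and 4.55%).

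Of the type I keratins, Krt18 had 359 UMIs (106 CPM) without and 90 (73.8 CPM) with T cell transcripts in the CD4+ cluster, a log2 ratio of 0.53 (0.19 to 0.88). In the Proliferating cluster it had 96 (32.0 CPM) and 21 (14.6 CPM), a log2 ratio of 1.13 (0.44 to 1.89). Krt19 was rare and was seen only in cells without T cell transcripts among these 4 sets, with 33 UMIs in 16 cells of the CD4+ cluster and 15 UMIs in 3 Proliferating cells. Against the 3 UMIs that a count of 0 allows, this was at least 3.97-fold and at least 2.40-fold higher than in the cells with T cell transcripts. The exact intervals of the log2 ratios reached down to 1.61 and 0.78, below these bounds, and the 15 Proliferating UMIs were too few for the filter of 20 UMIs. Both type I keratins were lower in the Proliferating than in the CD4+ cluster, with log2 ratios of -1.73 (-2.07 to -1.40) for Krt18 and -0.97 (-1.95 to -0.05) for Krt19.

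Cryab gave the most UMIs of the group, 6301 (1865 CPM) without and 480 (394 CPM) with T cell transcripts in the CD4+ cluster and 863 (287 CPM) and 250 (173 CPM) in the Proliferating cluster. The log2 ratios were 2.24 (2.11 to 2.38) and 0.73 (0.52 to 0.94). Unlike Clu, its sum in the CD4+ cluster was spread over many cells: 85 of the 144 cells with Cryab had at least 10 UMIs, and the highest cell held 261 UMIs or 4.14% of the sum. Of the 9 genes Cryab had the lowest log2 ratio of Proliferating over CD4+ cells without T cell transcripts, at -2.70 (-2.80 to -2.60). After thinning, 42.4% of those CD4+ cells still had a Cryab UMI, against 12.8% of the Proliferating cells and 2.61% of Vsir-/- neutrophils.

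Sdc4 was the most widely detected gene, in 81.5% and 70.7% of the cells without T cell transcripts and in 31.0% and 37.9% of those with them. Its UMIs numbered 2518 (745 CPM) and 496 (407 CPM) in the CD4+ cluster and 1060 (353 CPM) and 335 (232 CPM) in the Proliferating cluster. The log2 ratios of 0.87 (0.73 to 1.02) and 0.60 (0.43 to 0.79) lay above 0 but under 2-fold. In Proliferating cells with T cell transcripts, 165 of the 335 UMIs lay in 1 cell, and the log2 ratio was 1.31 without the highest cell of each set.

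The choice of cells moved several of these ratios by more than counting error. Among cells with at most 5% mitochondrial UMIs, the log2 ratios of cells without over cells with T cell transcripts in the CD4+ cluster were 3.47 for Clu, 2.25 for Krt8, 1.39 for Krt7 and 1.49 for Sdc4, all above the values over all cells. In the Proliferating cluster the same limit gave lower values, 1.37 for Clu, 1.05 for Krt8, -1.07 for Krt7 and 0.23 for Sdc4. When 1 T cell UMI was still counted as none, Krt7 stood at 1.49 in the CD4+ cluster and at -0.16 in the Proliferating cluster, and Sdc4 at 2.09 and 2.27. The Krt7 ratio and the size of the Sdc4 ratio therefore depended on which cells were counted.

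**Figure D2:**
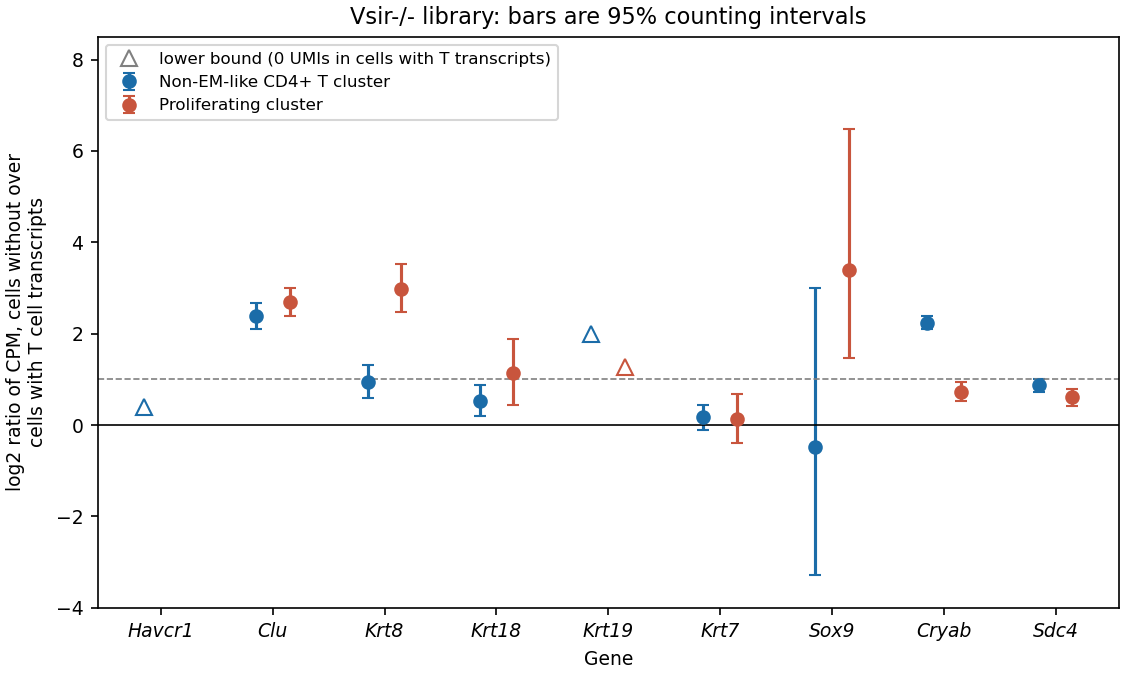
Log2 ratio of CPM (vertical axis) in Vsir-/- cells without over cells with T cell transcripts for each gene, in the 2 clusters, with 95% counting intervals as bars. The dashed line marks 2-fold. Triangles, labelled as lower bounds, take a count of 0 as 3 UMIs, and the exact intervals reach below them, to -0.14 for Havcr1 in the CD4+ cluster. Havcr1 in the Proliferating cluster (2 UMIs against 0) has no point, and Clu is the only gene above the dashed line with its whole interval in both clusters.

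Between the 2 clusters, 8 genes passed the filter: 1 (Sox9) was at least 2-fold higher in Proliferating cells without T cell transcripts, beside 10.3% of all 12384 genes, and 4 (Krt18, Krt7, Cryab and Sdc4) at least 2-fold lower, beside 8.67%. The median of the 8 log2 ratios was -1.01, against 0.07 over all genes. The make-up of the group differed accordingly: Cryab gave 54.0% of the group's UMIs in the CD4+ cluster without T cell transcripts and 21.5% in the Proliferating cluster, whereas Clu gave 13.4% and 31.8% and Krt8 3.46% and 13.8%. Marker lists moved with these values: epithelial junction genes summed to 1751 and 533 CPM in the 2 sets, principal cell genes to 1924 and 514 CPM, and endothelial genes to 1930 and 4218 CPM. What part these differences in cell make-up had in the ratios was not tested.

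To describe which kidney cells carried the transcripts, each of the 356 cells was assigned to the marker list with the most UMIs in it (at least 3, no ties); no list held a member. Proximal tubule genes led in 145 cells, endothelial genes in 95, thick ascending limb genes in 50, principal cell genes of the collecting duct in 23, and stromal genes in 9. Intercalated cell genes led in 4 cells, distal convoluted tubule genes in 3 and macrophage genes in 1, and another 26 cells had no leading list. Near the cut lay 14 proximal tubule, 11 thick ascending limb, 6 endothelial, 3 stromal and 2 principal cell assignments. So did 2 distal convoluted tubule, 1 intercalated cell and the 1 macrophage assignment. Such an assignment is a range and not a cell type. It was firm for the principal cells, with a median of 245 UMIs of their list, the endothelial cells (94 UMIs) and the proximal tubule cells (68 UMIs). It was weak for the thick ascending limb, with a median of 7 UMIs, mostly Umod, when cells led by proximal tubule genes also held a median of 6.

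Cells led by principal cell genes (Aqp2, Aqp3, Hsd11b2, Scnn1g, Scnn1b and Fxyd4) had the highest levels of Clu, Krt18, Krt19 and Krt7 among these 4 larger assignments. Clu stood at 3044 CPM there, 561 in thick ascending limb-led, 120 in endothelium-led and 41.1 in proximal tubule-led cells. Without the highest cell of each, the first 3 values were 1994, 122 and 108 CPM, so the principal cell-led cells stayed well above the others, and most of the gap between the thick ascending limb-led and endothelium-led cells rested on 1 cell. Krt18 stood at 436, 132, 21.7 and 0.839 CPM in principal cell-led, thick ascending limb-led, proximal tubule-led and endothelium-led cells, and Krt7 at 580, 177, 11.1 and 9.23 CPM. The last 2 Krt7 values had overlapping intervals. The 23 principal cell-led cells held 60.9% of the Clu, 54.5% of the Krt18, 56.3% of the Krt19 and 58.1% of the Krt7 UMIs of all 356 cells.

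Krt8 was distributed otherwise, and cells led by proximal tubule genes held 50.4% of its UMIs. Its level was 223 CPM in proximal tubule-led, 301 CPM in principal cell-led and 346 CPM in thick ascending limb-led cells, of which 65.5%, 87.0% and 64.0% had a UMI. The last 2 levels could not be told apart, at a log2 ratio of 0.20 (-0.09 to 0.50), and 155 of the 225 UMIs in thick ascending limb-led cells came from 1 cell, without which the level was 124 CPM. Endothelium-led cells had 12 Krt8 UMIs, or 5.03 CPM, so the keratin lay in cells led by an epithelial list or by none and hardly in the endothelium-led cells.

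Cryab was highest in the cells that the marker lists assigned weakly or not at all, at 4881 CPM in thick ascending limb-led cells and 7063 CPM in the 26 cells without a leading list, against 1016, 757 and 102 CPM in principal cell-led, proximal tubule-led and endothelium-led cells. When at least 10 UMIs were required for a list to lead, 89 cells had no leading list and these held 56.4% of all Cryab UMIs, at 5574 CPM, while the 18 cells still led by the thick ascending limb list stood at 3212 CPM. Sdc4 showed smaller differences and was lowest in endothelium-led cells. It stood at 1356 CPM in thick ascending limb-led, 1128 in unassigned, 1032 in principal cell-led, 533 in proximal tubule-led and 173 CPM in endothelium-led cells. The interval of the unassigned cells (970 to 1304) overlapped those of thick ascending limb-led (1268 to 1449) and principal cell-led cells (950 to 1119). Their order is therefore not firm. Of the 48 Sox9 UMIs, 27 lay in 2 of the 9 stroma-led cells (84.5 CPM, or 34.6 CPM without the highest cell), and no principal cell-led cell had one.

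**Figure D3:**
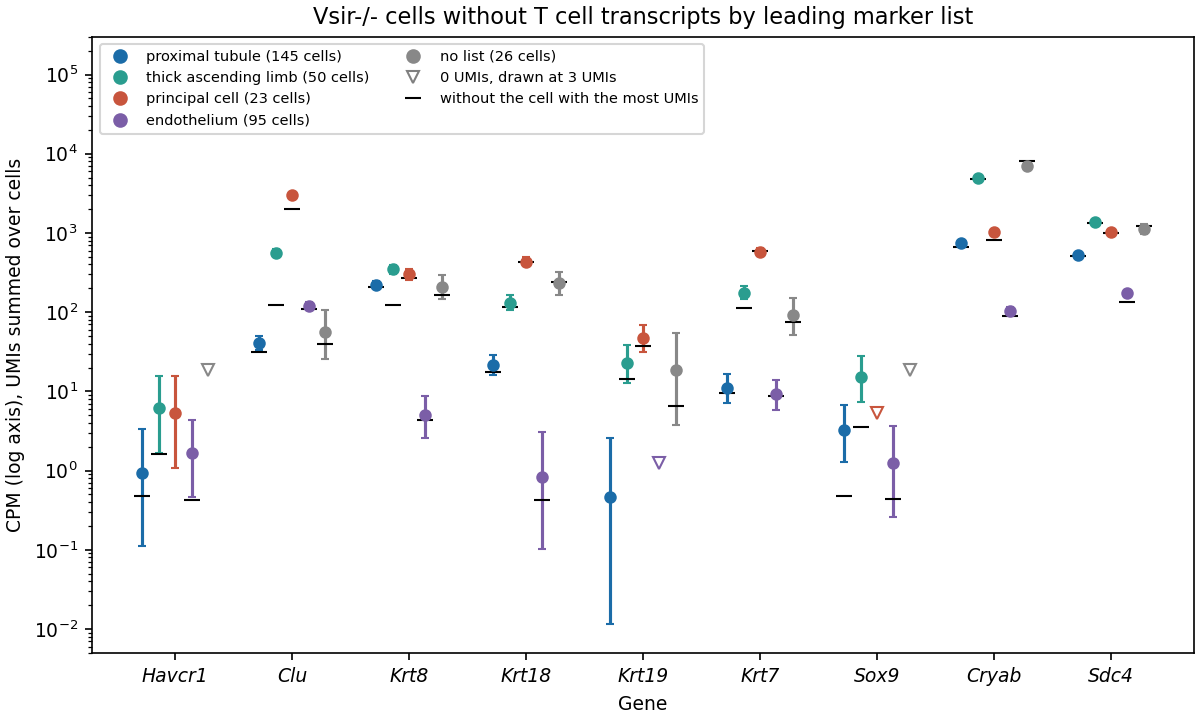
Level of each gene (CPM, log axis) in the 356 Vsir-/- cells without T cell transcripts, grouped by leading marker list, with 95% Poisson intervals. Open triangles stand for 0 UMIs and are drawn at 3 UMIs, and black dashes give the value without the cell with the most UMIs; Clu, Krt18 and Krt7 are highest in the principal cell-led cells and Cryab in the cells led by the thick ascending limb list or by none.

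The balance of the keratin partners shifted with these cells. UMIs of a 3′ library are not scaled by transcript length, so only the change of a ratio between sets of cells is described. Krt8 over Krt18 was 1.13 (0.974 to 1.30) in the CD4+ cluster without T cell transcripts and 5.78 (4.65 to 7.26) in the Proliferating cluster, and the intervals do not overlap. By leading list the ratio was 10.3 (7.61 to 14.2) in proximal tubule-led, 2.62 (2.03 to 3.39) in thick ascending limb-led and 0.690 (0.564 to 0.841) in principal cell-led cells. The Vsir-/- cells of all other clusters had a ratio of 1.65 (1.23 to 2.23), and CD4+ cluster cells with T cell transcripts 0.844 (0.614 to 1.16). A similar spread was seen for Cryab over Clu, which was 4.02 (3.80 to 4.25) and 0.676 (0.620 to 0.738) in the CD4+ and Proliferating cells without T cell transcripts, 18.4 (14.9 to 23.1) in proximal tubule-led and 0.334 (0.303 to 0.367) in principal cell-led cells. Single cells weighed on these ratios beyond their intervals. Without the cell highest in Clu, Cryab over Clu was 7.16 in the CD4+ and 1.21 in the Proliferating cells, 45.8 in thick ascending limb-led and 0.550 in principal cell-led cells. Without the cell highest in Krt8, Krt8 over Krt18 was 1.06 in thick ascending limb-led and 5.26 in Proliferating cells.

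**Figure D4:**
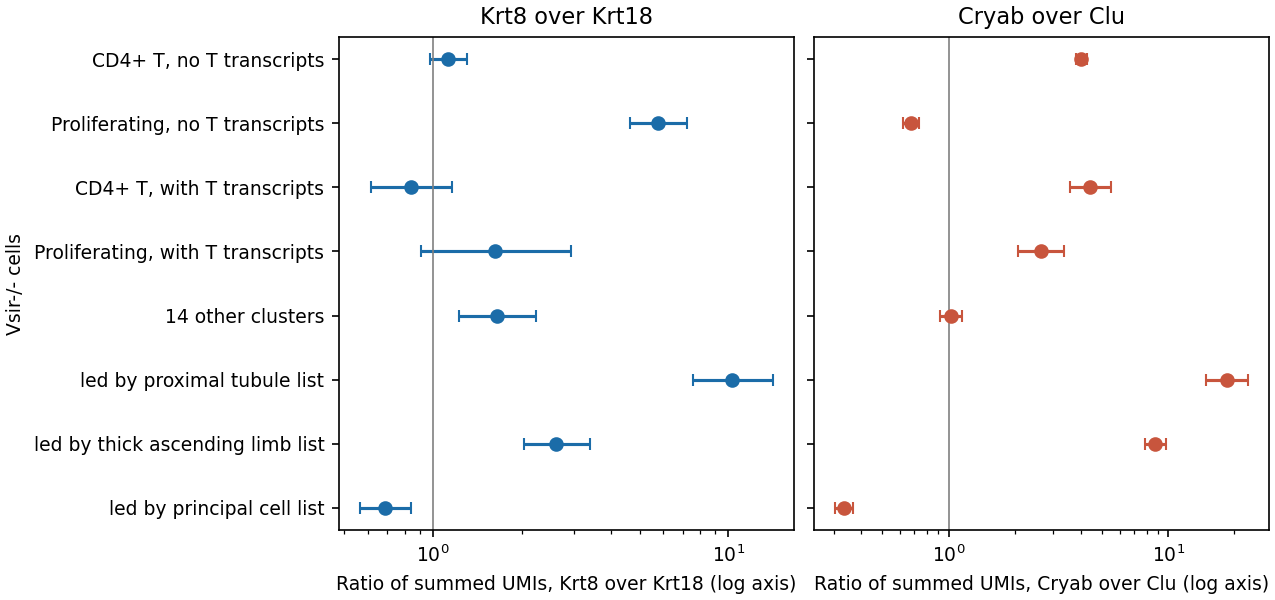
Ratio of summed UMIs (log axis) of Krt8 over Krt18 and of Cryab over Clu in sets of Vsir-/- cells, with exact 95% intervals. Both ratios span more than 10-fold between proximal tubule-led and principal cell-led cells.

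Several members were detected in many of the single cells. Alone, Sdc4 was found in 277, Cryab in 200, Krt8 in 175 and Clu in 150 of the 356 cells. Whether members shared cells more often than these shares give was not tested. Of the 356 cells, 132 had at least 4 of the 9 genes, 97 in the CD4+ and 35 in the Proliferating cluster, as did 14 of 116 and 7 of 66 cells with T cell transcripts, 3 of 88 Vsir-/- B cells and 0 of 158 Vsir-/- neutrophils. These counts were not matched for depth, which was higher in the cells without T cell transcripts than in B cells and neutrophils. Krt8 was present in 78 of the 95 cells with Krt18, in 17 of the 19 with Krt19 and in 66 of the 101 with Krt7, beside 175 of all 356 cells. Krt18 was present in 44.6% of the 175 cells with Krt8, beside 95 of all 356 cells. Across the 356 cells, which share 1 library, the highest Spearman rho between members was 0.53 for Cryab and Sdc4, followed by 0.50 for Krt18 and Krt7. The rho of Krt8 and Krt18 was 0.42. After thinning to 1000 UMIs (341 cells) the values were 0.30, 0.12 and 0.00067, so no relation of the partners Krt8 and Krt18 was detectable in these sparse counts. Krt18 had only 455 UMIs in the 356 cells before thinning, so the fall cannot tell depth from lost counts. The rho with UMIs per cell was 0.19 for Krt8 and 0.12 for Krt18. One Proliferating cell of 84746 UMIs held the highest counts of Krt8 (155), Krt7 (52) and Sdc4 (131), 1 of the 2 highest counts of Krt19 (7), and 296 Clu UMIs. It had 116 UMIs of the thick ascending limb list and 87 of the distal convoluted tubule list.

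By Spearman rho across the 356 cells, Krt18 was closest to the tight-junction genes Cldn4 (rho 0.65), Cldn8 (0.63) and Cldn7 (0.62), and Krt7 had rho values of 0.54 with both Cldn8 and Cldn7. After thinning, the values with Cldn8 and Cldn7 fell to 0.15 and 0.18 for Krt18 and to 0.019 and 0.23 for Krt7. Cryab was closest to Apela (0.66), the epithelial adhesion gene Epcam (0.65) and Plet1 (0.64), and these kept rho values of 0.60, 0.61 and 0.39 after thinning. Sdc4 was closest to Spint2 (0.66), the kidney cadherin gene Cdh16 (0.66) and Atp1b1 (0.66), values that were 0.34, 0.27 and 0.37 after thinning. Krt8 was closest to Spint2 (0.47), Cdh16 (0.47) and Ezr (0.45), values that were 0.06 or lower after thinning. Clu was closest to Tspan15 (0.49), Cav2 (0.46, or 0.11 after thinning) and Cdk14 (0.45), and Krt19 to Smim6 (0.46), Foxi1 (0.43) and Tmem45b (0.42). For the rare Havcr1 and Sox9 no rho passed 0.32 (Noxo1, and Zbtb42, Fjx1 and Mex3a).

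Other genes known from tubular injury were counted from a list of 26. In the CD4+ cluster 24 passed the filter, of which 10 were at least 2-fold higher and 2 at least 2-fold lower without T cell transcripts, beside 14.4% and 5.98% of all genes. For the Proliferating cluster 25 passed, 12 higher and 1 lower, beside 13.4% and 6.21%. The median log2 ratios of the list were 0.60 and 0.81, against 0.18 and 0.19 over all genes. Spp1, encoding osteopontin, stood at 6853 CPM without and 1599 with T cell transcripts in the CD4+ cluster (log2 ratio 2.10, 2.03 to 2.17) and at 3345 and 722 in the Proliferating cluster (2.21, 2.12 to 2.31). The genes next in abundance, S100a6, Cd24a, Anxa2 and Vim, were within 2-fold in both clusters. Their log2 ratios were 0.22, 0.32, -0.04 and -0.72 in the CD4+ cluster and -0.25, 0.54, -0.15 and -0.24 in the Proliferating cluster. Among less abundant genes, Cdh6, a cadherin of the developing and injured proximal tubule, stood at 55.3 against 12.3 CPM and 67.9 against 4.16 CPM. Dcdc2a stood at 51.8 against 7.38 CPM and 43.6 against 1.39 CPM. Cdkn1a, more abundant than both, went the other way, at 79.6 against 98.4 CPM and 167 against 223 CPM. Its log2 ratios were -0.31 (-0.62 to 0.02) and -0.42 (-0.63 to -0.21). Icam1, Myc and Timp1 were also lower without T cell transcripts in both clusters, within 2-fold, and the intervals of Myc and Timp1 included 0. The 2 clusters differed for Lcn2, encoding the injury marker NGAL, at 208 against 87.0 CPM (log2 ratio 1.26) in the CD4+ cluster and 50.6 against 74.9 CPM (-0.56) in the Proliferating cluster. They also differed for Vcam1, at 45.3 against 46.8 CPM (-0.05) and 190 against 50.6 CPM (1.90), and for the chemokine gene Ccl2, at 2.37 against 32.8 CPM (-3.79) and 266 against 11.1 CPM (4.58). Vcam1 and Ccl2 had 75 and 791 UMIs in the WT library. Endothelial genes stood at 1930 against 2855 CPM and 4218 against 3371 CPM, and macrophage genes at 23.1 against 30.4 CPM and 95.6 against 25.7 CPM. What part such cells had in the Vcam1 and Ccl2 ratios was not tested. Lcn2 is also a neutrophil gene, with 10848 UMIs in the WT library. Neutrophil genes were at 49.1 CPM without and 68.1 CPM with T cell transcripts in the CD4+ cluster. In the Proliferating cluster they were at 308 CPM without and 49.2 CPM with them. Of the 925 UMIs behind the 308 CPM, 804 lay in 1 cell led by endothelial genes. What part neutrophil transcripts had in the Lcn2 ratios was not tested. Cd44 was lower in cells without T cell transcripts in both clusters (log2 ratios -3.84 and -2.18), and it is also a T cell gene.

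Of the 10 other keratin genes in the matrix, 3 passed the filter in each cluster. Krt10 was at 24.3 and 15.6 CPM (log2 ratio 0.64, -0.09 to 1.44) without and with T cell transcripts in the CD4+ cluster, and Krt80 at 14.2 and 10.7 CPM. Krt20, another keratin known from tubular injury, had 0 UMIs in the CD4+ and 2 in the Proliferating cells without T cell transcripts. Krt23 had 19 and 2 UMIs there, and Krt5, a basal keratin of the urothelium, 1 and 1. In the Proliferating cluster Krt80 was at least 2-fold higher without T cell transcripts (16.0 against 7.63 CPM), and Krt83 was lower, with 0 against 25.7 CPM; it had 259 UMIs in the WT library. Of 9 other heat-shock genes, none was 2-fold higher and 3 (Hspa1a, Hspa1b and Dnajb1) were 2-fold lower without T cell transcripts in the CD4+ cluster, beside 14.4% and 5.98% of all genes. Among Proliferating cells 1 (Hspb8) was higher and 1 (Hspa1b) lower. Of the small heat-shock genes of the same family as Cryab, Hspb1 was at 292 against 273 CPM and Hspb6 at 5.62 against 3.28 CPM in the CD4+ cluster, with intervals of the log2 ratio that included 0. In the Proliferating cluster Hspb1 was at 487 against 325 CPM (0.58, 0.43 to 0.74), and the interval of Hspb6 again included 0. Among the other syndecans, Sdc2 was at 55.6 against 20.5 CPM (1.44, 0.83 to 2.10) in the CD4+ and 39.3 against 18.7 CPM (1.07, 0.46 to 1.73) in the Proliferating cluster, while Sdc1 and Sdc3 were within 2-fold. Of 9 epithelial junction genes, 5 in the CD4+ and 3 in the Proliferating cluster were at least 2-fold higher without T cell transcripts, beside 14.4% and 13.4% of all genes. Epcam differed between the clusters, at 590 against 126 CPM in the CD4+ and 66.6 against 72.1 CPM in the Proliferating cluster.

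The cells with T cell transcripts were not free of kidney transcripts either. In the CD4+ cluster they held 2517 CPM of principal cell genes and 2855 CPM of endothelial genes, above the 1924 and 1930 CPM in the cells without T cell transcripts, but 893 against 4309 CPM of proximal tubule genes. Their 90 Krt18 UMIs lay in 13 cells and their 150 Krt7 UMIs in 21 of 116 cells, with up to 19 and 35 UMIs per cell.

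Outside the 2 clusters the genes separated the libraries rather than the cell types. There were 14 other clusters in the WT library and 13 in the Vsir-/- library, where the NKT cluster had no cells. Over these clusters, Clu had 594 UMIs in Vsir-/- cells (62.1 CPM) and 0 in WT cells, and Krt8 122 and 0. Against the 3 UMIs that a count of 0 allows, these were at least 545-fold and at least 112-fold higher. The exact intervals of the log2 ratios reached down to 8.79 and 6.49, below these bounds. Krt18 had 74 and 5 UMIs, Krt7 135 and 4, Cryab 607 and 12, Krt19 14 and 0, Havcr1 8 and 0, and Sox9 3 and 0. All 6 genes that passed the filter were at least 2-fold higher in Vsir-/- cells, beside 20.8% of all 14097 genes, and none was 2-fold lower, beside 8.65%. Proximal tubule genes moved with them, at 488 CPM in Vsir-/- and 1.52 CPM in WT cells of these clusters, and endothelial genes at 495 and 58.7 CPM. Genotype, library and the labelled sort cannot be told apart here. The levels were low in most cell types. The median over 12 Vsir-/- clusters among them, leaving out the 2 basophils, was 27.8 CPM for Clu, 11.7 for Krt8, 7.30 for Krt18, 15.3 for Krt7 and 37.8 CPM for Cryab.

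Single cells made some of the exceptions. The 585 CPM of Clu in Vsir-/- B cells came from 307 UMIs of which 276 lay in 1 of 88 cells, and the level was 63.7 CPM without it. Of 260 Cryab UMIs in Vsir-/- M2-like R2 cells, a cluster of infiltrating macrophages, 237 lay in 1 of 168 cells, and the level was 155 CPM with it and 13.96 CPM without it. Of 29 Cryab UMIs in group 2 innate lymphoid cells, 26 lay in 1 of 19 cells. Vsir-/- B cells also held 85 Cryab UMIs among 524622 UMIs of all genes, and the spread of these over cells is not given here.

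Sdc4 was the exception to the split by library, with 747 UMIs in WT cells of the 14 other clusters (28.4 CPM) and 928 in Vsir-/- cells (97.1 CPM), a log2 ratio of 1.77 (1.63 to 1.92). In the WT library it was highest in R1, the kidney-resident macrophages (147 CPM, 120 to 178), group 2 innate lymphoid cells (ILC2; 109 CPM, 79.2 to 146) and B cells (105 CPM, 94.9 to 117). The interval of R1 lay above that of B cells, and that of ILC2 overlapped both. They were followed by γδ T cells (78.4 CPM) and plasmacytoid dendritic cells (68.0 CPM). It was lowest in CD8+ T cells labelled non-EM-like (0.790 CPM) apart from 25 basophils, which had none. In the Vsir-/- library ILC2 (199 CPM, 134 to 286) and R1 (189 CPM, 168 to 211) were again at the top. The mix of cells differed between the libraries. R1 gave 1601175 of the 9558856 UMIs of all genes in these clusters in the Vsir-/- library and 694926 of 26333153 in the WT library. What part this difference in cell make-up had in the pooled ratio of 1.77 was not tested. Between the libraries the intervals overlapped in R1, ILC2, γδ T cells and Other R2, in B cells (124 CPM in Vsir-/- and 105 in WT cells) and in plasmacytoid dendritic cells (59.2 and 68.0 CPM). Such an overlap does not show equal levels: R1 (189 and 147 CPM) and ILC2 (199 and 109 CPM) stood higher in Vsir-/- cells. The intervals lay far apart in NK cells (76.9 and 3.99 CPM) and in the same CD8+ T cells (88.2 and 0.790 CPM), where the WT level was close to 0. Clusters with more WT Sdc4 differed too. EM-like CD4+ T cells had 166 of 1577359 UMIs in the Vsir-/- and 59 of 2802763 in the WT library. M2-like R2 cells had 116 of 1675190 and 52 of 4392986. Even the highest of these leukocyte levels lay below the 745 and 353 CPM of the cells without T cell transcripts.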

How the data were processed

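Kidney cells of 1 WT and 1 Vsir-/- library were analysed. The authors aligned and counted the reads with Cell Ranger (version 3.1.0), kept genes found in 5 or more cells and cells with 200 or more UMIs (the files hold none under 501) and 10% or fewer mitochondrial UMIs, merged the libraries and named 16 clusters with Seurat (version 3.2.3, R 4.0.3); the tools and versions are those in the submitters' processing notes. The deposited matrix holds raw UMI counts for each gene in each cell and the deposited cell table holds each cell's library, cluster, UMIs and percent of mitochondrial UMIs; its UMI totals equalled the matrix sums in all 7314 cells. These notes name mm9 without a role; the gene annotation is not given in the sources used here, nor is a doublet step. No doublet caller was run. UMAP coordinates were not used.

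UMIs were summed by cluster and library and divided by all UMIs of the same cells (CPM). Poisson, Clopper-Pearson and exact conditional intervals (95%) cover counting error only, and with 1 library per genotype no p-value was computed. A gene counted as at least 2-fold different at a log2 ratio of 1 or more, with 0.5 UMIs added, among genes with at least 20 UMIs over both sets; ratios in the text have nothing added. A count of 0 was taken to allow 3. Spearman rho used ln(1 + UMIs per 10000). For thinning, 1000 UMIs were drawn without replacement from each cell that had as many. The members, lists and alternatives were chosen with earlier results of these data known. Genes named are the 9 members, the genes of the fixed lists, other keratins, and up to 3 genes per member with the highest rho of at least 0.3, of which 1 is not reported here. The ratio, interval and count steps were tested on simulated counts. Promoter windows were matched by symbol to a RefSeq table, and motifs were chosen for description. Python 3.11.15, numpy 2.4.6, scipy 1.17.1, pandas 2.3.3 and matplotlib 3.10.9 were used.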

Additional observations from a re-analysis of the deposited data

How the results depend on the processing

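No paired analysis was possible because each genotype has 1 library and no result comes from a test. For the 9 genes summed, the log2 ratio of cells without over cells with T cell transcripts in the CD4+ cluster (1.59) was 2.52 with at most 5% mitochondrial UMIs, 2.502 with cells weighted equally, 2.88 after thinning, 1.71 without the highest cell of each set and 2.64 with 1 T cell UMI allowed. In the Proliferating cluster (1.30) these settings gave 0.95, 1.70, 1.57, a value within its interval and 2.64, and 1.18 without cells that had Ptprc. For Proliferating over CD4+ cells (-1.37) they gave -2.09, -1.69, -1.76, -1.55, a value within its interval, and -1.48 without cells that had Ptprc. The direction held in each of these.

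Of the single-gene ratios whose interval excluded 0, these turned: Clu for Proliferating over CD4+ cells to 0.21 with equal weights and 0.15 after thinning, Krt8 to -1.001 with at most 5% mitochondrial UMIs, and Sox9 without its 5 highest cells to -1.84 against cells with T cell transcripts and -1.62 against the CD4+ cluster. Krt7 in the Proliferating cluster (0.13, interval including 0) was below 0 under 6 alternatives, down to -1.07, and Sox9 in the CD4+ cluster (-0.47, likewise) above 0 under 3. Leaving out the 5 highest cells, or the highest cell in a ratio of 2 genes, was chosen after seeing the data. Removing mitochondrial genes from the denominator moved none of the values.

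Counts of all genes past 2-fold depended on the filter. With no filter they were 2745 higher and 2129 lower (CD4+ cluster, 1673 and 696 as reported), 3075 and 2248 (Proliferating cluster, 1565 and 725), and 2764 and 2848 (Proliferating over CD4+, 1278 and 1074). With at least 50 UMIs, 426 were lower in the CD4+ cluster, 1032 higher and 439 lower in the Proliferating cluster, and the 1 member higher in Proliferating than in CD4+ cells (Sox9) became 0. The shares of cells with any member fell to 68.3% and 49.6% and the rho of Krt8 and Krt18 to 0.00067 after thinning.

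Depth limits Havcr1, Krt19 and Sox9, with 13, 48 and 48 UMIs in 356 cells. Cells of 1 library are not replicates, so no interval covers differences between mice.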
